A study of Mus musculus with 4 samples.

Results

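The genes described here are those of dopamine synthesis, transport and reception in the mouse hypothalamus. They are 10 genes taken by their symbols, out of 19938 genes with a symbol of their own in the array table. Each of the 10 was measured by 1 probe set, so no choice between probe sets entered their values. RNA of the hypothalamus was hybridised to 4 arrays, 1 per group. The mice were males of CDF1, a BALB/c by DBA/2 cross, 10 to 11 weeks old, killed on day 20 after a subcutaneous injection of 0.2 ml. Controls received the saline alone, and their array held pooled RNA of 4 animals. Inoculated mice received 500000 C26 colon adenocarcinoma cells (0.5M, RNA of 4 animals pooled), 1000000 cells (1M, 3 animals pooled) or 2000000 cells (2M, 1 animal). C26 is a transplantable mouse tumour line that produces cachexia, a wasting of body mass. With 1 array per group, a difference at any 1 cell number has no replicate check. The 2M group is a single animal by its source name, although its sample title says pooled. The source name is followed here.

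Dopamine is made from tyrosine by tyrosine hydroxylase (Th), the rate-limiting step, and aromatic L-amino acid decarboxylase (Ddc). It is loaded into vesicles by the vesicular monoamine transporter (Slc18a2) and taken back into the cell by the dopamine transporter (Slc6a3), while dopamine beta-hydroxylase (Dbh) turns it into noradrenaline. Receptors fall into a D1-like class that stimulates adenylyl cyclase (Drd1, Drd5) and a D2-like class that inhibits it (Drd2, Drd3, Drd4). In the hypothalamus, dopamine neurons of the arcuate and periventricular nuclei restrain prolactin release from the pituitary, and a further group lies in the zona incerta. The dopamine neurons of the ventral midbrain lie directly behind the hypothalamus and project to the striatum.

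The start-site regions of the genes that handle dopamine inside the neuron are shown because 4 of them were low together on the array of 1M. All 10 genes matched RefSeq's promoter table (build GRCm38.p6), with 12 start sites. Each window below runs from 250 bases before the annotated start to 10 bases after it, 5′ to 3′ on the strand of the gene. Th lies at chr7:142899986-142900245 on the minus strand, Slc18a2 at chr19:59260628-59260887 on the plus strand and Slc6a3 at chr13:73536497-73536756 on the plus strand. Ddc has 2 annotated starts, and the upstream one is shown, at chr11:11898135-11898394 on the minus strand. The window of the downstream one, at chr11:11890399-11890658, is not shown and held none of the strings searched for below. Which start was in use in this tissue was not tested. Capitals mark a full cAMP response element, TGACGTCA, or a binding letter string of the orphan nuclear receptors of the Nr4a family, AAAGGTCA or its reverse complement.
Th: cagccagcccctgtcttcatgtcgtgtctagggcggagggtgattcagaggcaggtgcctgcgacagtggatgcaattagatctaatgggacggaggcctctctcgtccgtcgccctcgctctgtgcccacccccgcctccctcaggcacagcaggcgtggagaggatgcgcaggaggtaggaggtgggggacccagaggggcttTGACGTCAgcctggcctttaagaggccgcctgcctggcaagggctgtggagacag
Slc18a2: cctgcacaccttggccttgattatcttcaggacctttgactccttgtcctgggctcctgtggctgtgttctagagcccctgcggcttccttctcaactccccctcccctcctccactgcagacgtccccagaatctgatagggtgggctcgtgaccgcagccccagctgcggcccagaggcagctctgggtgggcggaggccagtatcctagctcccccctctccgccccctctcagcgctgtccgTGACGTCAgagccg
Ddc: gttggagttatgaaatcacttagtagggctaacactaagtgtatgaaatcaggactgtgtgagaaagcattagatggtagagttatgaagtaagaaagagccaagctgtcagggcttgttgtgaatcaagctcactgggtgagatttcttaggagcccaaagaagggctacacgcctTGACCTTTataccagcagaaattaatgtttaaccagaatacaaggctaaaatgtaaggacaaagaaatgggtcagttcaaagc
Slc6a3: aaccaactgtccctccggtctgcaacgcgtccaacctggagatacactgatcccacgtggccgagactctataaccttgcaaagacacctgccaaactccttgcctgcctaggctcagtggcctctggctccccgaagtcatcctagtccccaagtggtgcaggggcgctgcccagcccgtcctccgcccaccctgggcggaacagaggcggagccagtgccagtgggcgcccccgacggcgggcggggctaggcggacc

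The element TGACGTCA, which reads the same on both strands, was found in the windows of Th and Slc18a2 and of no other member. Its first letter lay 45 bases before the start in Th and 4 bases before it in Slc18a2, where it crosses the start. Of 32851 promoter windows of the same length, 1.67% held it. The string AAAGGTCA, searched on both strands, was found in the upstream Ddc window only, with its first letter 73 bases before the start, against 1.39% of all windows. The GC box, GGGCGG on either strand, was found in windows of Th, Slc18a2, Slc6a3, Drd1, Drd2, Drd4 and Drd5 and in 33.4% of all windows. Drd1, like Ddc, has more than 1 annotated start. Its window at chr13:54054771-54055030 held the GC box and that at chr13:54055649-54055908 did not. The 3 strings did not overlap each other in these windows, and the 1 overlap was between GC boxes of Drd4. These matches describe letters in the windows, and no binding was measured.

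The deposited values are log2 expression values, so a difference of 1 is a doubling. A gene was tested only if its mean over the 4 arrays reached the 40th percentile of genes, 6.59 log2, which 11963 genes did. Of the members, Th, Ddc, Slc18a2, Slc6a3, Drd1, Drd2 and Drd3 passed, and Dbh, Drd4 and Drd5 did not. Drd5 had a mean of 6.585 log2, just under the filter value of 6.587, while Drd4 and Dbh had means of 6.30 and 5.02 log2. Genes typically differ a little between any 2 arrays. The central 90% of genes past the filter lay between -0.25 and 0.27 log2 from control at 0.5M, between -0.37 and 0.38 at 1M and between -0.32 and 0.32 at 2M. These ranges are used below to describe a difference as usual or unusual in size among genes, and they are not replicate error. Of 15 hypothalamic marker genes measured 14 lay past the filter, with Pmch, the melanin-concentrating hormone precursor, at 11.40 to 11.81 log2 and Hcrt, the orexin precursor, at 11.43 to 11.61 log2 over the 4 arrays. Of the 15, 9 were above control on all 3 tumour-bearing arrays and 1 below. Of all genes measured 33.2% were above and 22.5% below, shares that apply to the further lists too. Of the 11963 genes past the filter 3998 were above and 3265 below. The medians of the hypothalamic list were 0.15, 0.20 and 0.23 log2. The largest mean differences of this list were those of Oxt, the oxytocin precursor (0.74 ± 0.11 log2, SD over tumour-bearing arrays), and Npy, neuropeptide Y (0.68 ± 0.65 log2). Of the 14 past the filter 0 were called by limma, with 6 at an unadjusted p under 0.05.

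**Figure D1:**
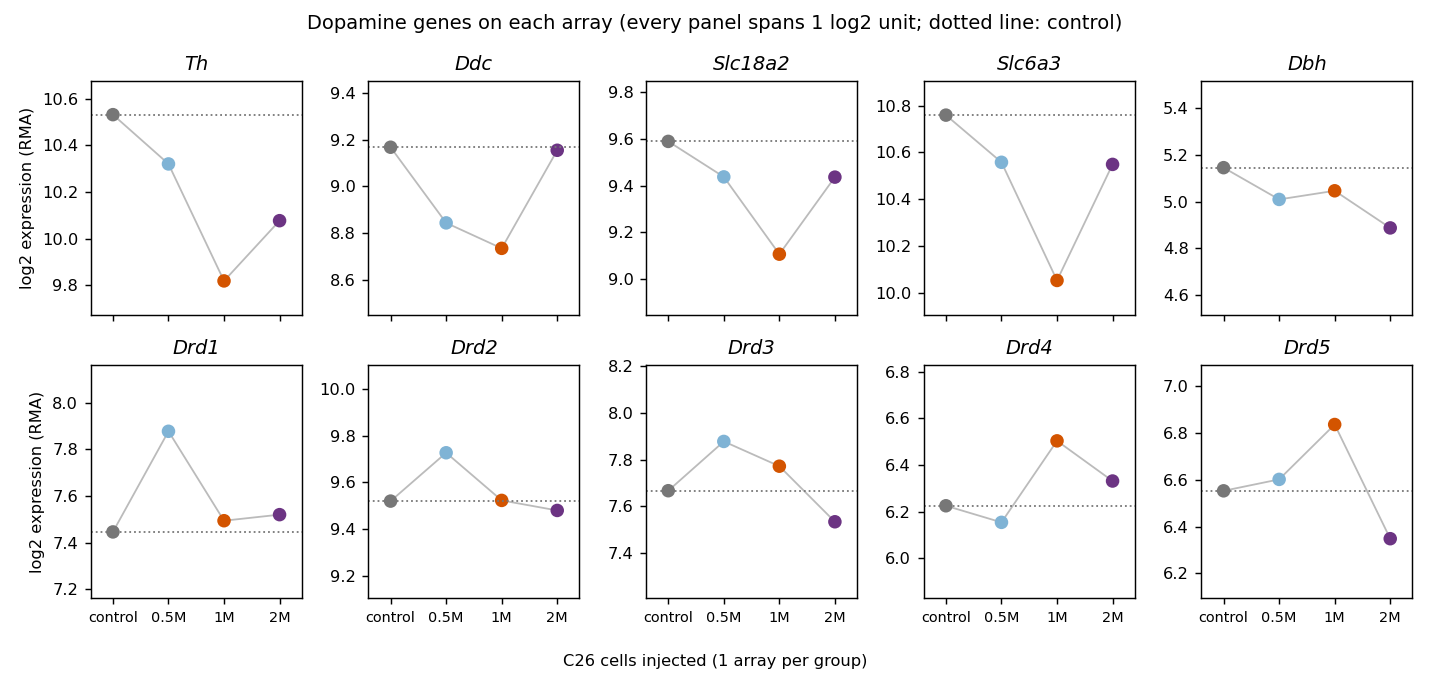
Log2 expression of each of the 10 dopamine genes (y axis, every panel spanning 1 log2 unit) on the control array and the arrays of 0.5M, 1M and 2M (x axis, 1 point per array). Th, Slc18a2 and Slc6a3 have their lowest point at 1M, and Drd1 has its highest at 0.5M.

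Genes that make, package and retrieve dopamine were below control on every tumour-bearing array. Th, Ddc, Slc18a2, Slc6a3 and Dbh, 5 of the 10 members, had 3 of 3 tumour-bearing arrays under the control value, a pattern shown by 22.5% of all genes measured. Among the 11963 genes past the filter, where all of these but Dbh lie, it was shown by 3265. Ddc at 2M was below control by only 0.01 log2. Drd1 alone was above control in 3 of 3, against 33.2% of all genes, and the other 4 receptor genes lay on both sides. All comparisons share the 1 control array, so a low or high control value moves the 3 differences together. In a tissue extract, fewer cells of a type and less RNA per cell cannot be told apart.

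Th, whose enzyme sets the rate of dopamine synthesis, stood at 10.53 log2 in the control, then 10.32, 9.82 and 10.08 on the 0.5M, 1M and 2M arrays. The control was the highest and 1M the lowest. Th was thus -0.21, -0.71 and -0.45 log2 from control at the 3 cell numbers, or 0.86, 0.61 and 0.73 times the control. At 1M, 59 of the 11963 genes past the filter, Th included, were as far below control, and at 2M 206 were. The difference at 0.5M was of the usual size among genes. Over the 3 tumour-bearing arrays Th averaged 10.07 log2, or -0.46 ± 0.25 log2 from control (SD over tumour-bearing arrays). It did not pass limma for tumour-bearing against control (adjusted p = 0.45, unadjusted p = 0.0437). No other member had an unadjusted p under 0.05 there with all 4 arrays, and 10.8% of all genes tested had one. Without the 2M array Ddc had one too, against 6.15% of genes.

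Slc6a3, the transporter that clears dopamine from the synapse, stood at 10.76 log2 in the control, then 10.56, 10.05 and 10.55 on the 0.5M, 1M and 2M arrays. The array of 1M was apart from the other 3. The differences from control were -0.20, -0.71 and -0.21 log2, and at 1M 62 genes past the filter were as far below, Slc6a3 included. Between 2M and 0.5M Slc6a3 differed by -0.01 log2, and between 2M and 1M by 0.50 log2, outside the central 90% of genes for those arrays. Its mean difference of -0.37 ± 0.29 log2 did not pass limma (adjusted p = 0.537), and without the 1M array it was -0.21 log2.

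Slc18a2, which fills the vesicles of all monoamine neurons, was lowest at 1M and highest in the control, as were Slc6a3 and Th. Its values at 2M and 0.5M differed by 0.001 log2 and those of Slc6a3 by 0.009. Th was lower at 2M than at 0.5M by 0.24 log2, outside the central 90% of genes for those arrays. Its levels were 9.59 log2 in the control, then 9.44, 9.11 and 9.44 on the 0.5M, 1M and 2M arrays. The difference of -0.48 log2 at 1M was unusual among genes, whereas -0.15 at both 0.5M and 2M was not. Ddc, which also serves serotonin neurons, was at 9.17 log2 in the control, then 8.84, 8.73 and 9.15 on the 0.5M, 1M and 2M arrays. Here 0.5M and 1M were both low, at -0.32 and -0.43 log2 from control, and 2M was at -0.01. Neither Slc18a2 nor Ddc passed limma (adjusted p = 0.55 and 0.593). Without the 1M array the mean difference of Slc18a2 was -0.15 log2, against -0.26 with it, and that of Ddc -0.17, against -0.26.

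Dbh, the enzyme that commits dopamine to noradrenaline, was at 5.15 log2 in the control, then 5.01, 5.05 and 4.89 on the 0.5M, 1M and 2M arrays, below the filter on all 4 arrays and not tested. Its differences of -0.14, -0.10 and -0.26 log2 were of the usual size. Its lowest value was at 2M, unlike those of the other 4 enzymes and transporters, which were lowest at 1M.

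By size, 0 of the 7 members past the filter were at least 0.5 log2 (1.41-fold) away from control at 0.5M, where 0.56% of genes past the filter were that much higher and 0.293% that much lower. At 1M, 2 members, Th and Slc6a3, were at least 0.5 log2 lower, against 2.14% of genes past the filter, and 0 were higher, against 1.63%. At 2M 0 members passed in either direction, against 1.24% of genes higher and 1.25% lower. Limma called 0 members for tumour-bearing against control, where it called 6 genes in all, 0.0502% of those tested. For a linear slope on injected cell number limma called 0 members and 0% of genes. With all 4 arrays no member had an unadjusted p under 0.05 in the trend, where 780 genes, or 6.52%, had one. That count depended on each array. Without 2M the members with one were Th, Ddc, Slc18a2 and Slc6a3, against 18% of genes, and Th alone had one without 0.5M (5.48% of genes) and without 1M (12.6%). The slope of Th was -0.24 ± 0.12 log2 per 1000000 cells (SE, limma adjusted p = 0.779), and since 1M was lower than 2M the 4 levels did not follow the cell number. Without the single animal of 2M the slope was -0.71 for Th and -0.71 for Slc6a3 (-0.11 with it), -0.48 for Slc18a2 (-0.08) and -0.43 for Ddc (0.02), and 0 of them were called by limma (adjusted p of 0.111 to 0.173).

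**Figure D2:**
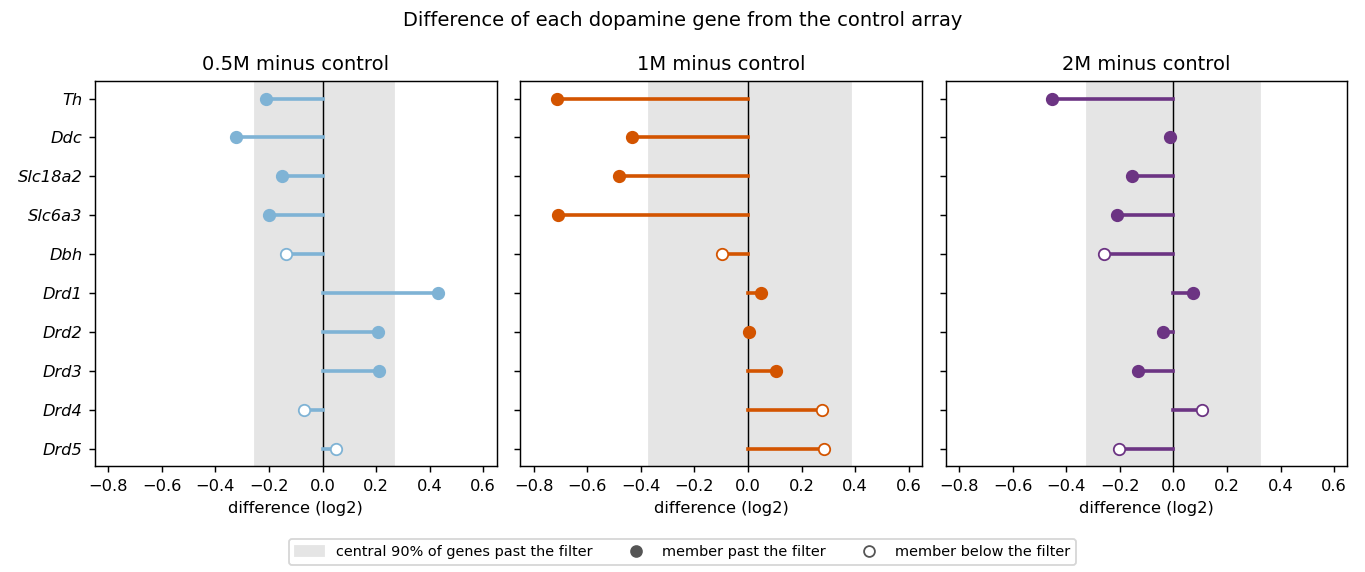
Difference of each dopamine gene from the control array in log2 (x axis) at 0.5M, 1M and 2M (panels), with filled points for members past the filter, open points for those below it and grey bands for the central 90% of genes past the filter. At 1M, Th, Ddc, Slc18a2 and Slc6a3 lie outside the band, as do Ddc and Drd1 at 0.5M and Th at 2M.

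The place of the 4 presynaptic genes among all genes past the filter differed between the arrays. At 0.5M, 271 genes were as far below control as Ddc, and 956, 1750 and 1051 were as far below as Th, Slc18a2 and Slc6a3. At 1M the counts were 59 for Th, 62 for Slc6a3, 286 for Slc18a2 and 387 for Ddc. At 2M Th kept a low place with 206, while Slc6a3 had 1437, Slc18a2 2209 and Ddc 5371. The array of 1M also had the widest spread of differences of all genes, with an SD of 0.23 log2 (0.5M 0.17, 2M 0.21), which these ranks take into account.

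**Figure D3:**
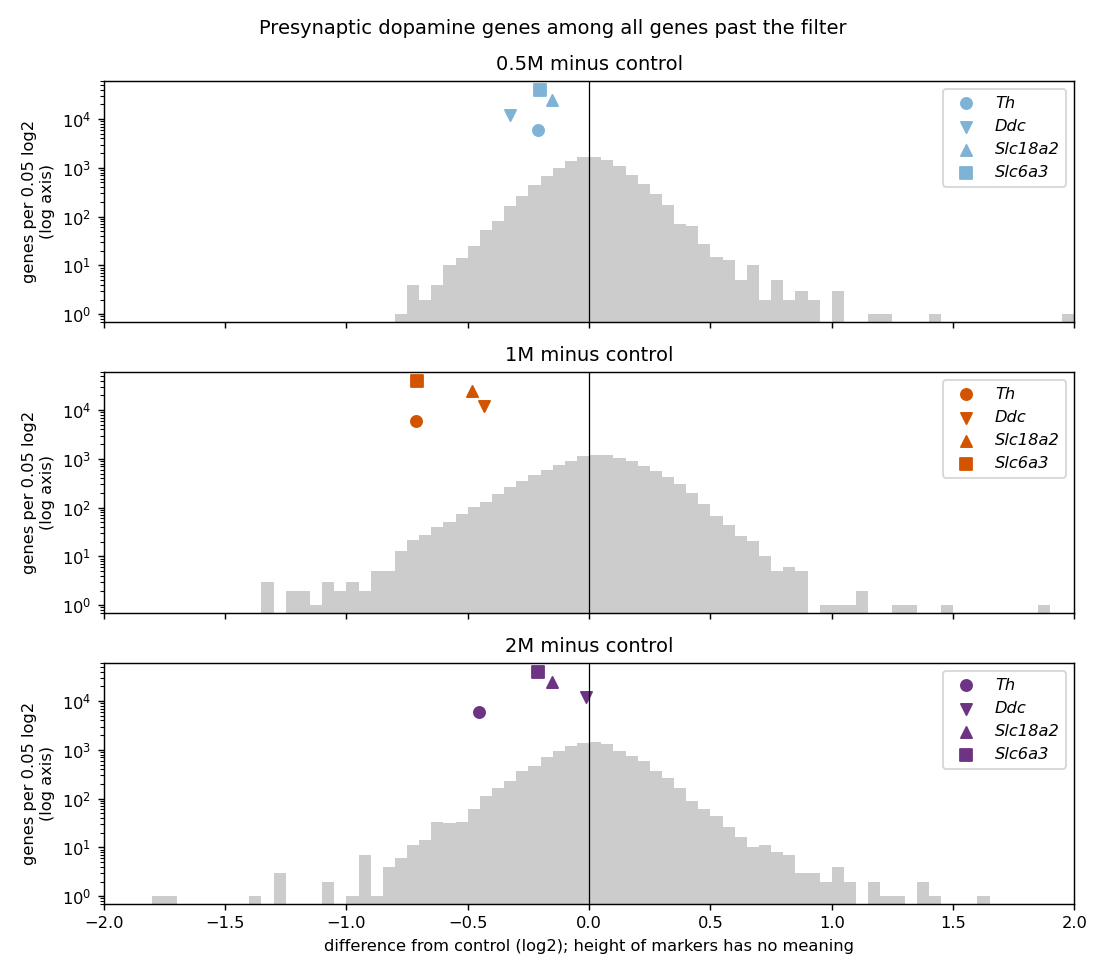
Number of genes past the filter (y axis, log scale) by difference from control in bins of 0.05 log2 (x axis) at 0.5M, 1M and 2M, with markers at the values of Th, Ddc, Slc18a2 and Slc6a3. The markers lie farthest to the left at 1M, and 2 or 3 genes per panel lie beyond the axis at 2 log2.

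Among the D1-like receptor genes, Drd1, the main stimulatory receptor, stood at 7.45 log2 in the control, then 7.88, 7.49 and 7.52 on the 0.5M, 1M and 2M arrays. The array of 0.5M was apart, 0.43 log2 or 1.35-fold above control, with 112 genes past the filter as far above, Drd1 included. At 1M and 2M Drd1 was 0.05 and 0.07 log2 above control, of the usual size. Drd5 was at 6.55 log2 in the control, then 6.60, 6.84 and 6.35 on the 0.5M, 1M and 2M arrays, so its high array was 1M and its low one 2M. Drd1 did not pass limma (0.18 ± 0.21 log2, adjusted p = 0.695), and without the 0.5M array its mean difference was 0.06 log2. Drd5 was not tested.

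D2-like receptor genes lay close to control. Drd2, which serves as autoreceptor on dopamine neurons and as the receptor of pituitary lactotrophs, was at 9.52 log2 in the control, then 9.73, 9.52 and 9.48 on the 0.5M, 1M and 2M arrays. Its highest array was 0.5M, 0.21 log2 above control, a difference of the usual size among genes. Drd3, a high-affinity receptor of limbic regions, was at 7.67 log2 in the control, then 7.88, 7.77 and 7.53 at the 3 cell numbers. Drd4 was at 6.22 log2 in the control, then 6.15, 6.50 and 6.33, below the filter. Every step between neighbouring arrays in the order of Drd2, Drd3, Drd4 and Drd5 lay within the central 90% of genes for those arrays, but the gap between the lowest and the highest array of each gene lay outside it. Drd2 and Drd3 differed by -0.25 and -0.34 log2 between 2M and 0.5M (central 90% -0.22 to 0.23). Drd4 differed by 0.35 log2 between 1M and 0.5M (-0.30 to 0.31), and Drd5 by -0.49 log2 between 2M and 1M (-0.28 to 0.25). Each pair was picked as the extremes of its gene, whereas the ranges are for a fixed pair of arrays. In limma, Drd2 (0.06 ± 0.13 log2, adjusted p = 0.884) and Drd3 (0.06 ± 0.18 log2, adjusted p = 0.895) did not pass.

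Differences from control outside the central 90% of genes were those of Th, Ddc, Slc18a2 and Slc6a3 at 1M, Ddc and Drd1 at 0.5M and Th at 2M. At 0.5M the 2 genes lay on opposite sides, Ddc below and Drd1 above control. Over the 10 members, the median at 1M was -0.05 log2, against 0.08 over all genes measured. At 0.5M and 2M it was -0.10 and -0.14, against -0.01 and 0.03. At 1M the receptor genes Drd1 to Drd5 lay between 0.00 and 0.28 log2 and the enzymes and transporters between -0.71 and -0.10. The upper end was set by Drd4 and Drd5, both below the filter, which were at 0.17 and 0.19 log2 after a cyclic loess normalisation. Of all genes measured 63.8% were above control at 1M. How far the differences depend on the level of a gene was not tested.

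Several markers of midbrain dopamine neurons were also low at 1M. Of 17 measured, 8 were below control on all 3 tumour-bearing arrays and 1 above, against 22.5% and 33.2% of all genes. Their median was -0.09, -0.31 and -0.11 log2 on the 0.5M, 1M and 2M arrays. Of the 15 past the filter, 4 were at least 0.5 log2 lower at 1M, 0 at 0.5M and 1 at 2M. Of all genes past the filter 2.14%, 0.293% and 1.25% were that much lower on those arrays. Slc10a4, a vesicular protein gene of monoamine and cholinergic neurons, was at 8.40 log2 in the control, then 8.26, 7.20 and 8.17 on the 0.5M, 1M and 2M arrays. Chrna6, a nicotinic receptor subunit of dopamine neurons, was at 8.02 log2 in the control, then 7.94, 7.26 and 7.74. Its partner subunit Chrnb3 was -0.51 log2 from control at 1M. Nr4a2, a nuclear receptor needed for midbrain dopamine neurons, was at 9.50 log2 in the control, then 9.23, 8.91 and 9.39.

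These 4 genes are the 4 of the list at least 0.5 log2 lower at 1M. Their lowest value at 1M, where Th, Ddc, Slc18a2 and Slc6a3 were lowest too, follows largely from that choice. En1, a midbrain transcription factor, was -0.25, -0.45 and -0.50 log2 from control, and Sncg, gamma-synuclein, -0.46, -0.35 and -0.32. At 1M 6 of the 17 markers were above control. They were Pitx3 at 0.22 log2, Foxa1 at 0.16, Ntsr1 at 0.13, Foxa2 at 0.09, Lmx1b at 0.07 and Sox6 at 0.01 log2. Foxa1 was the 1 marker above control on all 3 arrays, by 0.07, 0.16 and 0.40 log2. The summed linear level of the list was 6744 in the control and 6452, 5477 and 6312 at the 3 cell numbers. Limma called 0 of the 15, with 2 at an unadjusted p under 0.05. The part of midbrain tissue in the low presynaptic values was not tested.

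Transcription factors and transmitter genes of hypothalamic and incertal dopamine cells lay above control. Of 12 measured, 9 were above on all 3 arrays and 1, Nr4a2, was below, with medians of 0.25, 0.28 and 0.26 log2 on the 0.5M, 1M and 2M arrays. Onecut3 was 0.48 ± 0.05 log2 above control, Dlx2 0.35 ± 0.06, Dlx1 0.35 ± 0.06 and Meis2 0.39 ± 0.27 (SD over tumour-bearing arrays). Dlx1 and Dlx2 are homeobox genes of forebrain GABA neurons. Limma called 0 of the 12, with 4 at an unadjusted p under 0.05. Gad1, Gad2 and the Dlx genes mark GABA neurons at large, so the level of the list does not count dopamine cells.

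Several striatal genes and the pituitary hormone genes Gh and Prl had high values on the array of 0.5M, on which Drd1 was high. Ppp1r1b, the protein DARPP-32 that relays D1 signals, was 0.87, 0.25 and 0.34 log2 over control on the 0.5M, 1M and 2M arrays. Pde10a, a striatal phosphodiesterase, was 0.84, 0.26 and 0.17 log2 over control, and Rgs9 0.48, 0.19 and 0.21. Gpr6 had another order, 0.28, 0.16 and 0.51 log2 over control, highest at 2M. Penk and Tac1 were 0.20 and 0.08 log2 over control at 0.5M. Of 14 striatal markers, 13 were above control at 0.5M, 9 at 1M and 10 at 2M, where 48.2%, 63.8% and 56.1% of all genes were. The medians of the list were 0.21, 0.14 and 0.05 log2. Their summed linear level was 6797 in the control and 8220, 6796 and 7153 at the 3 cell numbers. Limma called 0 of the 13 past the filter, with 0 at an unadjusted p under 0.05. The part of striatal tissue in the Drd1 value was not tested.

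In the pituitary list, Gh, growth hormone, was 4.68 log2 above control at 0.5M and 0.79 and 0.72 at 1M and 2M. Prl, prolactin, was at 3.95 log2 in the control, then 7.80, 4.50 and 4.51 on the 0.5M, 1M and 2M arrays. It was below the filter by its mean and over the filter value at 0.5M only, so its differences carry a low control value. Of 11 pituitary markers 7 were above control on all 3 arrays and 3 below. At 0.5M 7 of the 11 were above control and 4 below. Those below were Cga at -0.045 log2 from control, Tbx19 at -0.20, Trhr at -0.22 and Gnrhr at -0.01. The summed linear level of the list was 1122 in the control and 3088, 1235 and 1095 at the 3 cell numbers. Gh, at 10.80 log2 on the 0.5M array, was the largest part of the sum there, so the sum does not describe the list as a whole. Limma called 0 of the 5 past the filter, with 2 at an unadjusted p under 0.05, Ghrhr (0.36 ± 0.06 log2) and Lhb (0.35 ± 0.03 log2). Prl is a transcript of lactotrophs, cells that bear Drd2, and its part in the Drd2 value at 0.5M was not tested.

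**Figure D4:**
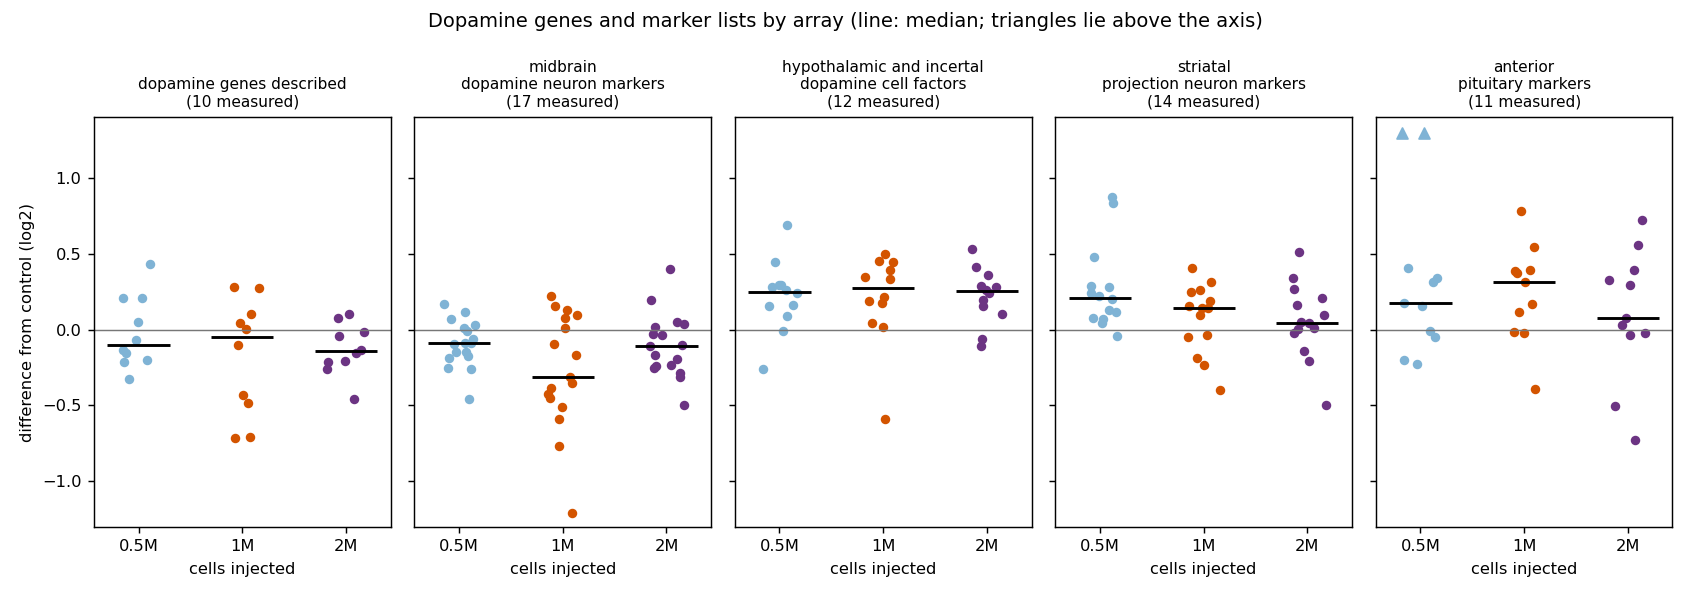
Difference from control in log2 (y axis) at 0.5M, 1M and 2M (x axis) for the members of 5 gene lists, 1 point per gene with the median as a line and triangles for the values of Gh and Prl above the axis. The midbrain list has its lowest median at 1M, -0.31 log2, and the striatal list its highest at 0.5M, 0.21 log2.

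Of the dopamine receptor signalling genes, some of which are in the striatal list too, 20 were measured. Of these, 9 were above control on all 3 arrays and 2 below, against 33.2% and 22.5% of all genes. The medians were 0.11, 0.05 and 0.03 log2. Caly, calcyon, a neuronal vesicle protein first described with D1 receptors, was 0.29, 0.41 and 0.33 log2 above control. Limma called 0 of the 20, and Caly was the 1 gene of the list with an unadjusted p under 0.05 (limma adjusted p = 0.375). Among G protein subunits, Gnao1, the main inhibitory one of brain, was within 0.01 log2 of control on each array. Gnal, the stimulatory one that couples to D1 receptors in striatum, was at 0.14 and -0.08 log2 from control at 0.5M and 1M.

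The cofactor of Th is tetrahydrobiopterin. Qdpr, the reductase that regenerates it, was at 10.78 log2 in the control, then 10.29, 10.41 and 9.84 on the 0.5M, 1M and 2M arrays, with the single animal of 2M lowest. Its mean difference was -0.60 ± 0.30 log2 (limma adjusted p = 0.408). Gch1, the first enzyme of the pathway, below the filter, was -0.06, -0.46 and -0.09 log2 from control, lowest at 1M. Pts and Gchfr were 0.15 ± 0.05 and 0.12 ± 0.09 log2 above control. Of the 7 measured, 2 were above control on all 3 arrays and 3 below, and 0 of the 5 past the filter were called.

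Among genes of monoamine breakdown, Maob, the oxidase of glia and serotonin neurons, was -0.20, -0.58 and -0.43 log2 from control, in the same order of arrays as Th. Its limma p was 0.0355 unadjusted and 0.433 adjusted. Sult1a1, a phenol sulfotransferase, was 0.42, 0.28 and 0.88 log2 above control. Aldh1a1, an aldehyde dehydrogenase of a subset of midbrain dopamine neurons, was -0.09, -0.43 and -0.10 log2 from control, and Sult4a1 -0.18 ± 0.07 log2. Of the 7 measured, 2 were above and 3 below on all 3 arrays, and 0 were called.

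Regulators of Th lay mostly below control, with 7 of 13 below on all 3 arrays, 1 above, and medians of -0.06, -0.11 and -0.11 log2. Egr1, an activity-dependent transcription factor, was -0.29, -0.25 and -0.56 log2 from control and Fos, below the filter, -0.40, -0.11 and -0.30. Jund was 0.12, 0.50 and 0.16 log2 above control. Creb1, the factor known for binding cAMP response elements, was within 0.07 log2 of control on each array, with 9.14 log2 in the control, then 9.11, 9.12 and 9.08 at the 3 cell numbers. Limma called 0 of the 12 past the filter, with 1 at an unadjusted p under 0.05.

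Ddc and Slc18a2 are shared with serotonin neurons and Dbh with noradrenergic ones. Tph2, which defines serotonin neurons, was at 6.29 log2 in the control, then 5.44, 5.12 and 5.26 on the 0.5M, 1M and 2M arrays, below the filter, and Slc6a4 was -0.30, -0.28 and -0.43 log2 from control. Neither was tested. Of 7 serotonergic markers 1 was above and 2 below on all 3 arrays, with medians of -0.19, 0.07 and -0.24 log2, and limma called 0 of the 4 past the filter, with 0 at an unadjusted p under 0.05. Noradrenergic and adrenergic markers were below the filter throughout, 7 of 7, with medians of -0.10, 0.15 and 0.01 log2. Among them were Slc6a2, the noradrenaline transporter, at 5.57 log2 in the control, then 5.63, 5.72 and 5.58, and Pnmt, which makes adrenaline, at 5.10 log2 in the control, then 5.07, 5.34 and 5.27.

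Genes of similar pattern were sought among the 11962 others past the filter by the Euclidean distance of the 3 differences from control. For Th these were Phxr4, Bet1 and Pa2g4, at distances of 0.06, 0.08 and 0.08 log2. For Slc6a3 they were Dimt1, ND3 and Tmem41b, at 0.06, 0.06 and 0.07 log2. Drd1 had farther neighbours, Strip2, Emc3 and Ankrd44, at 0.11, 0.11 and 0.13 log2, and Drd2 near ones, Slc35e3, Pcdhb7 and Lrrc9, at 0.02, 0.03 and 0.03 log2. The measure rests on 4 arrays and is a description.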

How the data were processed

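RMA was used by the authors to make the deposited log2 values, per the submitters' processing notes. The method corrects background, gives all arrays the same quantiles and combines the probes of a set, so a change common to all transcripts is not seen. Which version was run, and over which arrays, is not given in the sources used here. There were 35556 probe sets, with 0 missing values, and 21789 had exactly 1 gene symbol in the platform annotation. The probe set with the highest mean stood for a gene. Array medians were 6.72 to 6.77 log2, and arrays correlated at 0.984 to 0.994 over probe sets. The number of arrays limits the precision. A two-sided limma fit (limma 3.58.1, R 4.3.3, lmFit then eBayes, p adjusted by Benjamini-Hochberg over the 11963 genes past the filter, threshold 0.05) tested the 3 tumour-bearing arrays against the control and a linear trend with cell number, with 2 residual degrees of freedom each. In the first, the error comes from the tumour-bearing arrays, which differ in cell number and pool size, and the control array is taken to vary as they do. Both were tested on simulated data.

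The 10 members and the 11 further gene lists were chosen with earlier results of these data known. Of 147 listed genes 131 were measured, and 9 belong to several lists. Summed levels are sums of 2 to the power of the log2 values. Named genes were the members, up to 4 genes per list with the largest mean difference, any at least 0.5 log2 away on all 3 tumour-bearing arrays, the 3 genes most like Th, Slc6a3, Drd1 and Drd2, and defining markers. Chrnb3, Gnao1, Gnal and Creb1 were chosen after their values were seen.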

Additional observations from a re-analysis of the deposited data

How the results depend on the processing

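Averaging probe sets changed no member's values, though Drd5 then passed the filter. Cyclic loess moved Dbh at 1M most, from -0.10 to -0.21 log2. It left the mean differences of Th, Ddc, Slc18a2 and Slc6a3 within 0.01 log2 of those before. Those of Dbh, Drd4 and Drd5 came to -0.21, 0.06 and 0.004 (-0.16, 0.11 and 0.04 before). Leaving out 1 tumour-bearing array moved several by over 1.5 times, the small ones of Drd2 to Drd5 included: Slc6a3, Slc18a2 and Ddc were -0.21, -0.15 and -0.17 log2 without 1M, and Drd1 was 0.06 without 0.5M. The sign changed without the 0.5M array for Drd2 (-0.02 log2) and Drd3 (-0.01), and without the 1M array for Drd5 (-0.08). Cyclic loess turned no member's difference on any array. Of the members, 0 were called by limma under any alternative, with adjusted p of 0.266 to 0.974 for tumour against control and 0.111 to 1 for the trend. The lowest trend values, for Th and Slc6a3, came without the 2M array. With an array left out, an alternative chosen after seeing the data, members are held to 2 arrays, so their count cannot fall. Members below control on both remaining arrays were 5, against 26.5% to 33.6% of all genes. Members above were 1 to 4, with 2 without 0.5M (47.3% of genes), 1 without 1M (38.1%) and 4 without 2M (38.6%). At a threshold of 0.3 log2 the members lower were 1, 4 and 1 at 0.5M, 1M and 2M (3.02%, 7.82% and 5.98% of genes past the filter) and 1 was higher at 0.5M (3.38%), and at 1 log2 0 were lower at 1M. Genes called in tumour against control were 1 without the filter, 2 with the 60th percentile filter and 3 to 6 without each array in turn, 3 without 1M. For the trend they were 0 to 58, with 58 without 1M and 38 without 0.5M. The cause was not tested. No paired analysis was possible because each group has 1 array.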
